A study of Mus musculus with 18 samples.

Results

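The comparison described here is the interaction of antiandrogen treatment with gestational day in male fetal mouse lung, that is, whether the change of a transcript between gestational day 17 (GD17) and GD18 differed between flutamide and vehicle. It was taken from 12 of the 18 arrays of the series, those of male lungs, as the difference 18 flut minus 18 m, less the difference 17 flut minus 17 m. Each of 18193 genes was tested through 1 probe set, and no gene was picked for its level. A positive interaction means that the change over the day was more positive with flutamide, and a negative one that it was more negative.

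Flutamide blocks the androgen receptor, a ligand-activated transcription factor through which testosterone and dihydrotestosterone act. Testes of male fetuses secrete androgens during this window of lung development, and androgens are known to delay the maturation of type II cells, the epithelial cells that make surfactant. Over the same window the lung passes from the canalicular to the saccular stage. Proliferation slows, the mesenchyme thins and lays down matrix, airway cells differentiate, and surfactant genes are switched on.

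The mice were BALB/c. Treatment of the dams began at GD10, with 1 mg of flutamide under the skin each day or vehicle alone, and ended 1 day before collection, so that lungs of GD18 had 1 more injection behind them than lungs of GD17. The groups were vehicle-injected males at GD17 (17 m) and GD18 (18 m) and flutamide-treated males at GD17 (17 flut) and GD18 (18 flut). Each group had 3 arrays, and each array carried lung RNA pooled from 3 fetuses of the same sex from distinct litters, so the spread between arrays is the spread between pools. Whole lungs were measured, and a larger share of cells of a type and more RNA per cell cannot be told apart. Values are log2 of the normalized probe set intensity that the authors deposited, and a difference of 1 is a 2-fold change.

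Several pools stood apart, and they are named before the results because the interaction is built from all 4 groups. Pool 18 flut 3 had Xist, the RNA of the inactive X chromosome, at 11.95 on the log2 scale, against 7.81 to 8.69 in the other 11 male pools and 11.33 to 12.51 in the 6 female pools, while the Y-linked genes Eif2s3y (53.8% of the level in both other 18 flut pools), Kdm5d (40.7%) and Uty (43.1%) were low. Both X-inactivation and Y-linked RNA were thus present in that pool, whose label is male. In pool 17 m 3 the mean of 20 exocrine pancreas genes was 8.33, against 5.27 to 5.69 in the other 11 pools. The mean of 24 liver genes reached 10.57 in pool 18 m 3, 9.45 in 18 flut 2 and 9.28 in 17 m 3, and was lower in all other pools. Striated muscle genes were highest in 18 flut 2 (10.62), thymus and lymphocyte genes in 18 m 1 (7.32), and filaggrin (Flg), an epidermal gene, was at 8.95 in 18 flut 1 and between 2.93 and 3.14 in all other male pools. Pool 18 m 3 also had the lowest ratio of 5′ to 3′ signal for the actin control (-0.80 against -0.45 to -0.34) and the Gapdh control (-0.39 against 0.14 to 0.27). Each pool was left out in turn, and 17 m 3, 18 m 3 and 18 flut 3 were left out together. That joint fit keeps 18 flut 1, 18 flut 2 and 18 m 1. Such values are given beside some of the results but not all.

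No gene had an interaction that passed limma at an adjusted p under 0.05 (0% of 18193 genes), nor at 0.10, and the smallest adjusted p was 0.175. At an unadjusted p under 0.05 there were 1713 genes, of which 354 (1.95% of all genes) were higher and 1359 (7.47%) lower. The changes over the day that the interaction compares were themselves large. With vehicle 3077 genes (16.9%) rose and 2119 (11.6%) fell from GD17 to GD18, and with flutamide 2268 (12.5%) rose and 2421 (13.3%) fell. Of the 3423 genes called in both arms, 99.8% moved in the same direction, and they made up 65.9% of the vehicle calls and 73.0% of the flutamide calls. Across genes, which are not independent replicates, the changes in the arms correlated with r = 0.83 (Spearman's rho = 0.72), and the arms share no pool. A further 3039 genes were called in 1 arm, but 87.3% of those had the same sign in the other arm, and a call in 1 arm alone does not show that the arms differ.

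The median interaction over all genes was -0.05, and 62.5% of genes lay below 0. The median standard error was 0.13, and the 95% interval of the median gene reached 0.28 to either side, a 1.22-fold difference, with 3 pools in each group. From the 10th to the 90th percentile of genes this margin ran from 0.21 to 0.45. It belongs to an interval without adjustment for the number of genes, and a call needed a value well beyond it. Gm4432, for example, had an interaction of 0.78 (95% interval 0.55 to 1.02) and was not called by limma (adjusted p = 0.175).

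**Figure D1:**
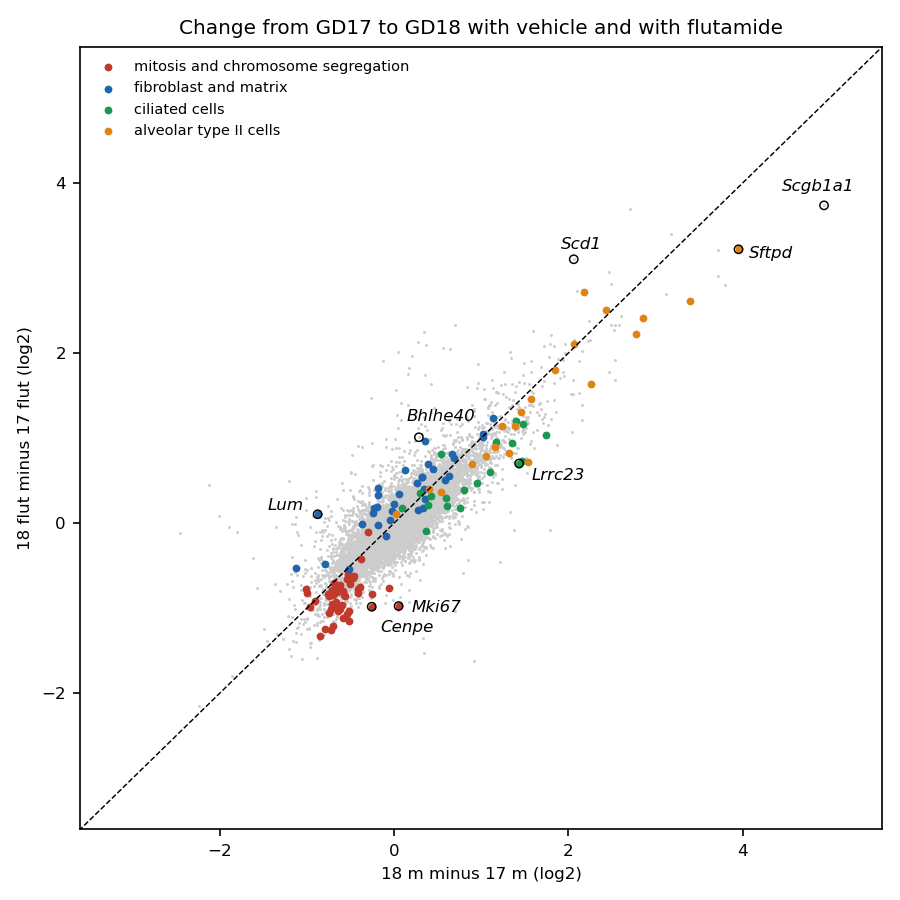
Change from GD17 to GD18 (log2) with vehicle on the horizontal axis and with flutamide on the vertical axis, 1 point for each of 18193 genes (grey) with 4 gene lists coloured and 8 genes circled. On the dashed line both changes are the same. Points of the mitosis list lie mostly below it with both changes negative, points of the matrix list mostly above it, and type II cell genes follow it at large positive values.

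The lower interactions were led by genes of the dividing cell. Mki67, which encodes the proliferation marker Ki-67 that coats mitotic chromosomes, was at 11.08, 11.08 and 10.91 in the 17 m pools and at 10.90, 11.03 and 11.29 in the 18 m pools, so the vehicle pools of both days overlapped. With flutamide it was at 10.36, 10.50 and 10.71 at GD17 and at 9.65, 9.56 and 9.43 at GD18, with no overlap between the days. Mki67 thus fell by 0.98 with flutamide (1.97-fold, limma adjusted p = 0.000131), while its change with vehicle was 0.05 (adjusted p = 0.793). The interaction was -1.03 ± 0.16 (SE), with a 95% interval from -1.38 to -0.68 and an adjusted p of 0.185. Without 17 m 3, 18 m 3 and 18 flut 3 it was -0.80 (unadjusted p = 0.000409).

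The list of 50 measured mitosis and chromosome segregation genes differed from Mki67 in that most fell in both arms. Of its members, 45 fell with vehicle and 49 fell with flutamide, against 11.6% and 13.3% of all genes. Their median change was -0.62 with vehicle and -0.84 with flutamide. For 47 of 50 genes the interaction was below 0, with a median of -0.25 against -0.05 over all genes, and 22 were lower and 0 higher at an unadjusted p under 0.05, with none called. The share of 44.0% stands beside 7.47% of all genes. With any single pool left out the number of lower members ran from 17 to 37, the latter without 18 m 3, and without 17 m 3, 18 m 3 and 18 flut 3 together it was 28. The mean level of the list was 9.94, 9.90 and 9.87 in the 17 m pools and 9.39, 9.42 and 9.11 in the 18 m pools. With flutamide it was 9.68, 9.69 and 9.76 at GD17 and 8.79, 8.97 and 8.78 at GD18. The 18 flut pools were the lowest of all, and pool 18 m 3, with the weak 5′ signal, was the lowest vehicle pool.

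Members with the larger values, chosen after their values were seen, belonged to condensin, the kinetochore and the spindle. Cenpe, the kinetochore kinesin that aligns chromosomes, was at 8.52, 8.33 and 8.18 in 17 m, 7.98, 8.20 and 8.08 in 18 m, 7.57, 7.71 and 7.92 in 17 flut and 6.79, 6.80 and 6.65 in 18 flut. It fell by 0.98 with flutamide, and the interaction was -0.73 ± 0.15 (SE, adjusted p = 0.242). Smc4, the core ATPase of condensin, fell by 0.76 with flutamide and changed by -0.06 with vehicle, with an interaction of -0.70 ± 0.13 (SE), and both of its other probe sets were also lower at an unadjusted p under 0.05. Ncapg, a subunit that condensin needs on chromosomes, fell in both arms, by 0.70 with vehicle and by 1.21 with flutamide. Its 17 m pools lay at 8.73 to 8.75 and its 18 m pools at 7.97 to 8.08, while 17 flut lay at 8.42 to 8.61 and 18 flut at 7.19 to 7.48. Hmmr, a spindle protein, Ndc80, which ties kinetochores to microtubules, and Bub1, a spindle checkpoint kinase, also fell in both arms, with interactions of -0.53, -0.52 and -0.48. For Kif20b and Cenpf the interactions were -0.64 and -0.59, and the other probe sets of Hmmr, Kif20b and Cenpf did not all have the same sign. The 3 members above 0 were the mitotic kinase Plk1 and the kinesins Kif15 and Kif20a. Among mitotic genes often used as proliferation markers, Top2a and Aurkb did not pass an unadjusted p of 0.05. That alone does not show that they moved differently from Mki67.

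**Figure D2:**
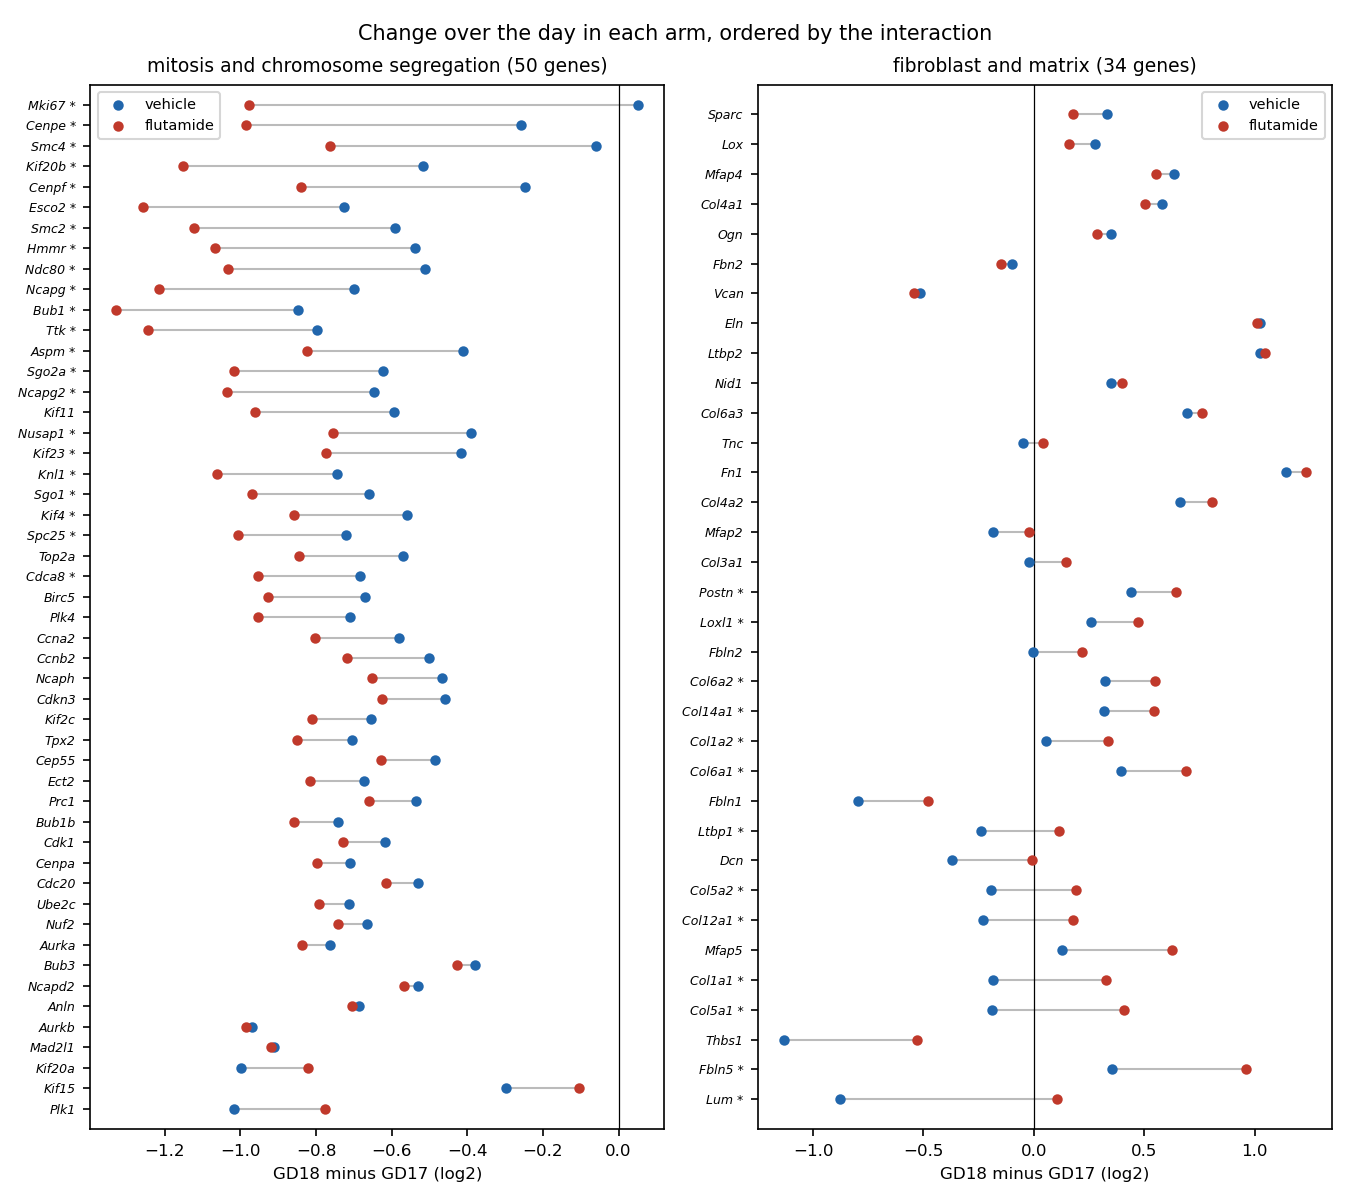
Change from GD17 to GD18 (log2) of the 50 mitosis genes (left) and 34 fibroblast and matrix genes (right), with vehicle in blue and with flutamide in red, ordered by the interaction. Stars mark an unadjusted interaction p under 0.05, which 22 mitosis genes and 13 matrix genes have. On the left the red point lies to the left of the blue one in 47 of 50 genes, and on the right it lies to the right in 26 of 34.

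The promoters of this group are shown as a description of the list, and all its members were searched whatever their interaction. RefSeq windows of the GRCm38.p6 build, from 250 bases before to 50 after the start site, were found for 44 of the 50 genes. They come from the C57BL/6J reference, not from BALB/c. Searched on both strands were CCAAT (the letters bound by the factor NF-Y), TTTGAA (the core of the cell cycle homology region, bound by the DREAM complex in resting cells) and AGAACA (the unit that the androgen response element repeats), none of which contains another. In the windows below capitals mark every match.
Mki67, chr7:135716330-135716629, minus strand: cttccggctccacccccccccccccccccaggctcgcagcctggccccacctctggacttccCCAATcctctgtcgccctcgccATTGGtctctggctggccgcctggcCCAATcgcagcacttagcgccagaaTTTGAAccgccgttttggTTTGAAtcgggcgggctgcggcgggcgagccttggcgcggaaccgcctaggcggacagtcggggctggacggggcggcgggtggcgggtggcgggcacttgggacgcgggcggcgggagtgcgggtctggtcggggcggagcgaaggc
Ncapg, chr5:45669675-45669974, plus strand: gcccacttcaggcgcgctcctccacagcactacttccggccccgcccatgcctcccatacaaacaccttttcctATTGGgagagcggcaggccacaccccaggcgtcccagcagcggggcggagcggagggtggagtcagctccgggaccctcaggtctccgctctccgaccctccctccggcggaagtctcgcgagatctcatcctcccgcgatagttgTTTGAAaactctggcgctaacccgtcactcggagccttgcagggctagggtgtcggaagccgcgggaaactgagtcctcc
Cenpe, chr3:135212313-135212612, plus strand: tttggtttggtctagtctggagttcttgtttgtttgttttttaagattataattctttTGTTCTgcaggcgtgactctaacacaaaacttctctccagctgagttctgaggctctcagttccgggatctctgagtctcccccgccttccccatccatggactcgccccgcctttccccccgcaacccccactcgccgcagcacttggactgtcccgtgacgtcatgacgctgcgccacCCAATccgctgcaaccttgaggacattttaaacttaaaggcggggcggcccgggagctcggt
Col5a1, chr2:27886175-27886474, plus strand: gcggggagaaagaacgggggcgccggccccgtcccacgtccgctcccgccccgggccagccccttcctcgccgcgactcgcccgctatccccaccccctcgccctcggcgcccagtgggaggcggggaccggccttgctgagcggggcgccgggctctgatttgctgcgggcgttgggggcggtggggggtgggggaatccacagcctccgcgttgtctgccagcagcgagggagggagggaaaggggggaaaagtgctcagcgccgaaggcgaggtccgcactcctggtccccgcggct
The Mki67 window held CCAAT 3 times and TTTGAA 2 times, the Ncapg window each of them 1 time, and the Cenpe window CCAAT and AGAACA 1 time each. The Col5a1 window, shown for a matrix gene with a positive interaction, held none of the 3. Of the 44 mitosis windows, 77.3% held TTTGAA and 68.2% held CCAAT, against 18.1% and 37.9% of the windows of 27025 genes. AGAACA was in 11.4% of them, against 19% of all windows. The whole androgen response element is 2 such units in inverted order with 3 bases between them. It was in 0 of the 44 windows and in only 1 of all 27025. So rare a match cannot tell a list of this size from the other genes. For the 14 of the 10 higher and 10 lower genes of smallest p that had a window, AGAACA was in 7.14%. These matches describe letters in a short window, and say nothing of binding in these lungs. The shares belong to mitosis genes as a list, and whether they go with the interaction was not tested.

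Other genes of growth and nuclear structure were among the 10 lower genes of smallest p. H3c4, a histone H3 gene of the replication-dependent cluster on chromosome 13, was at 6.31 to 6.69 in 17 m and 6.53 to 6.65 in 18 m, which overlap. In flutamide-treated lungs it was at 7.12, 7.16 and 7.21 at GD17, above every vehicle pool, and below every 17 flut pool at GD18, with 6.31 and 6.17 as the lower values of its 3 pools. H3c4 fell by 0.87 with flutamide and changed by 0.06 with vehicle, with an interaction of -0.94 ± 0.14 (SE) and an adjusted p of 0.175, the smallest of all genes together with that of Gm4432. Every H3c4 pool lay below the median level of all genes (7.34). The authors primed the RNA at poly(A) tails, and how much H3c4 RNA carried one was not tested. Nol8, a nucleolar protein, fell by 0.90 with flutamide and changed by -0.01 with vehicle (interaction -0.89 ± 0.15, SE). Both of its other probe sets were lower too, but 0 of them at an unadjusted p under 0.05. The zinc finger genes Zfp820, Zfp995, Zfp518a and Zfp810 all fell with flutamide and were not called with vehicle, with interactions between -0.96 and -0.48. Counted after this was seen, 36 of 336 genes with a Zfp symbol were lower and 2 higher at an unadjusted p under 0.05, with a median of -0.07, against 7.47% lower and 1.95% higher and a median of -0.05 over all genes. Such genes have near-identical relatives, and their probe sets may share signal. U2surp, a splicing factor bound to the U2 particle, had -0.54 ± 0.11 (SE) with all 3 other probe sets lower. The list of 42 splicing factors had a median of 0.00, with 5 lower (11.9%, against 7.47% of all genes) and 1 higher (2.38%, against 1.95%).

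DNA replication genes fell in both arms. Of 42 measured, 40 fell with vehicle and 41 fell with flutamide, against 11.6% and 13.3% of all genes. In the interaction 4 were lower and 1 higher at an unadjusted p under 0.05, a share of 9.52% lower against 7.47% of all genes. The median interaction was -0.12. The count of lower members rested on 18 m 3, the pool with the weak 5′ signal, since it was 20 of 42 without that pool (median -0.27) and 3 to 7 with any other single pool left out. It was 15 without 17 m 3, 18 m 3 and 18 flut 3, and 12 with array weights. Ccne2, the cyclin of the entry into S phase, fell by 0.96 with vehicle and by 1.46 with flutamide, with an interaction of -0.50 ± 0.15 (SE, adjusted p = 0.381).

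Matrix genes were among the higher interactions. Col5a1, the chain of type V collagen that starts fibrils, was at 10.12, 10.06 and 9.96 in 17 m and at 9.86, 9.88 and 9.83 in 18 m. With flutamide it was at 9.52, 9.54 and 9.60 at GD17 and at 9.90, 10.08 and 9.90 at GD18. So the GD18 pools lay below the GD17 pools with vehicle and above them with flutamide. Col5a1 rose by 0.41 with flutamide (adjusted p = 0.00109), its change with vehicle was -0.19 (adjusted p = 0.0601), and the interaction was 0.60 ± 0.10 (SE, 95% interval 0.39 to 0.81, adjusted p = 0.196). Both other Col5a1 probe sets were higher, and without 17 m 3, 18 m 3 and 18 flut 3 the value was 0.65 (unadjusted p = 0.000175). Mamdc2, a matrix proteoglycan, was at 6.61 to 6.63 in 17 m, 6.43 to 6.50 in 18 m, 6.39 to 6.55 in 17 flut and 6.79 to 6.90 in 18 flut, the highest group. It rose by 0.39 with flutamide, with an interaction of 0.56 ± 0.09 (SE, adjusted p = 0.185).

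Of 34 fibroblast and matrix genes measured, 16 rose and 5 fell with vehicle and 18 rose and 2 fell with flutamide. Of all genes 16.9% rose and 11.6% fell with vehicle, and 12.5% rose and 13.3% fell with flutamide. In the interaction 13 were higher and 0 lower at an unadjusted p under 0.05, a share of 38.2% against 1.95% of all genes, and the median was 0.21. None was called. Col1a1 and Col5a2, chains of fibrillar collagens, had interactions of 0.51 ± 0.13 and 0.39 ± 0.10 (SE), and their other probe set was higher as well. Fbln5, which assembles elastic fibres, rose by 0.96 with flutamide and was not called with vehicle (0.35), with an interaction of 0.61 ± 0.17 (SE). Col6a1 and periostin (Postn) rose in both arms, by 0.39 and 0.44 with vehicle and by 0.69 and 0.64 with flutamide. The small proteoglycan lumican (Lum) had the largest value of the list, 0.98 ± 0.36 (SE), but pool 17 m 3, with the pancreas genes, was its highest at 10.92 against 10.15 and 10.23 in the other 17 m pools. Without 17 m 3, 18 m 3 and 18 flut 3 the Lum interaction was 0.64 (unadjusted p = 0.141). The elastin gene Eln rose in both arms by nearly the same amount. The mean level of the list was 10.45 to 10.57 in 17 m, 10.62 to 10.67 in 18 m, 10.31 to 10.35 in 17 flut and 10.63 to 10.71 in 18 flut, so the vehicle and flutamide pools were apart at GD17 and overlapped at GD18.

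The count of 13 matrix genes was sensitive to single pools. It was 7 without 17 flut 1 or 18 m 1 and 8 without 17 flut 2, 17 m 2 or 18 flut 3, while no lower member appeared in any of these. Without 17 m 3, 18 m 3 and 18 flut 3 it was 10, and without 18 m 3 and 18 flut 3 it was 6.

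**Figure D3:**
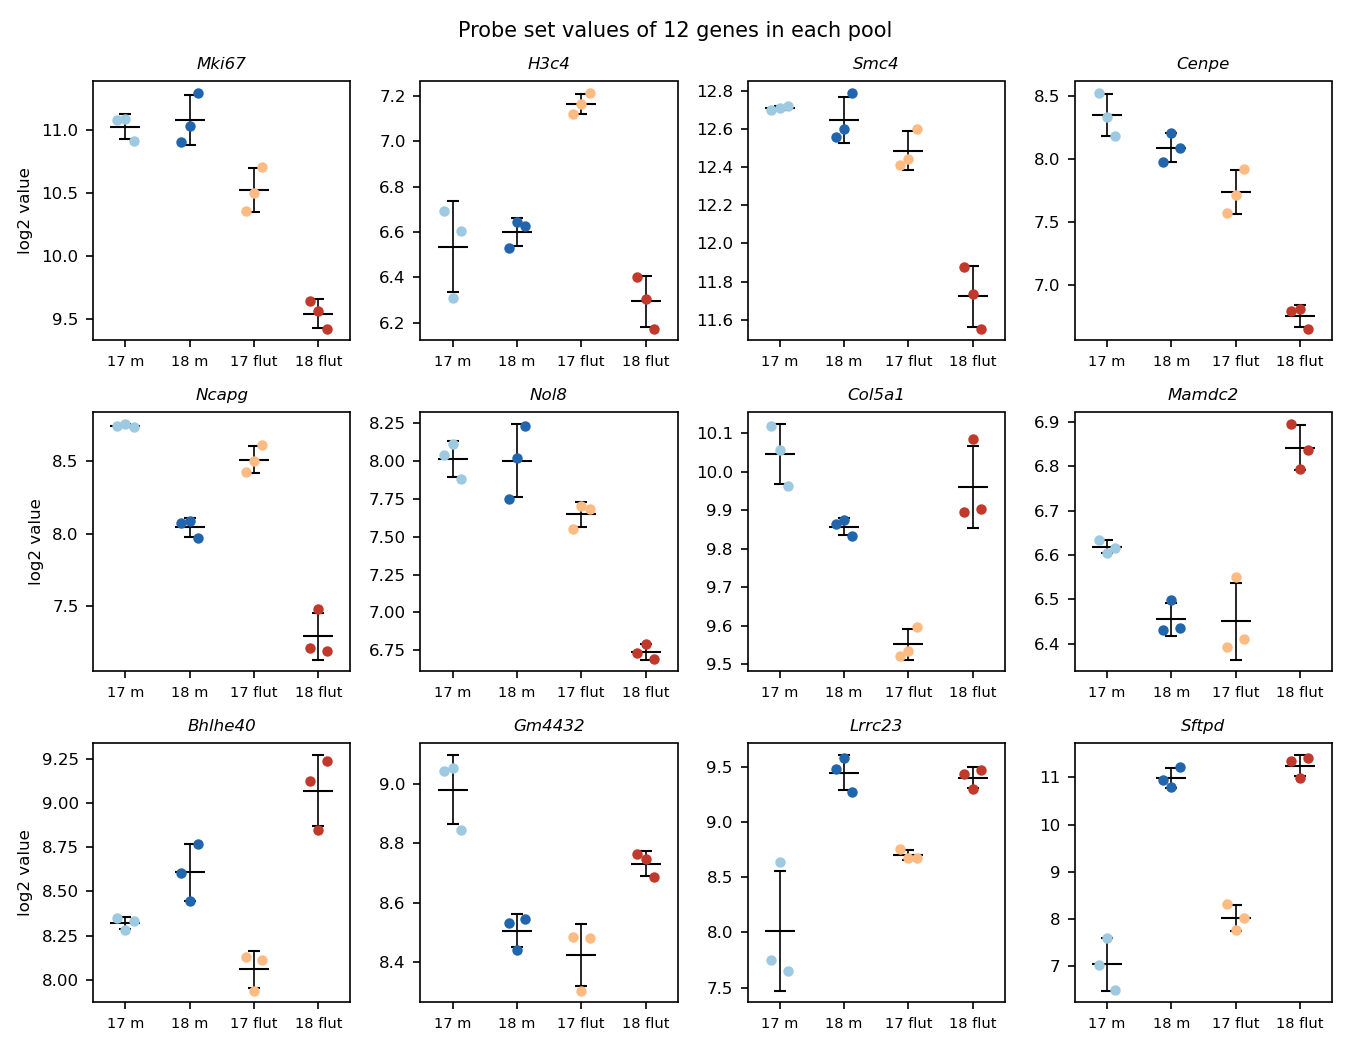
Log2 probe set values of 12 genes in each pool, with 3 points per group, the mean as a bar and the SD (n = 3) as whiskers. Each vertical axis has its own range and does not start at 0. Mki67, Smc4, Nol8 and Cenpe are lowest in 18 flut, while Gm4432 runs down from 17 m to 18 m and up from 17 flut to 18 flut.

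Of 18 smooth muscle and myofibroblast genes, 4 were higher (22.2%) and 0 lower at an unadjusted p under 0.05, against 1.95% higher and 7.47% lower of all genes. Myh11, the smooth muscle myosin heavy chain, was at 9.87 to 10.04 in 17 m and 9.58 to 9.63 in 18 m, and at 9.41 to 9.56 in 17 flut and 9.45 to 9.75 in 18 flut, where the days overlap. Myh11 fell by 0.34 with vehicle and changed by 0.11 with flutamide, with an interaction of 0.45 ± 0.11 (SE, adjusted p = 0.334), and its other probe set was lower. Synpo2, an actin-bundling protein, had 0.46 ± 0.15, and Actg2, the enteric smooth muscle actin, had 0.75 ± 0.31 (SE), which became 0.45 without 17 m 3, 18 m 3 and 18 flut 3. Of 41 genes of TGF-beta and BMP signalling, 6 were higher (14.6%) and 0 lower. Gdf10, a BMP-like ligand, rose by 0.52 with flutamide and was not called with vehicle (interaction 0.45 ± 0.12, SE), and Id4, an inhibitor of DNA binding that BMPs induce, fell by 0.82 with vehicle and changed by -0.10 with flutamide (interaction 0.72 ± 0.23, SE). When each pool was dropped in turn, the number of higher members ran from 2 to 8 for smooth muscle and from 3 to 7 for TGF-beta and BMP.

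Hedgehog genes did not share a direction. Gli1, the transcription factor that hedgehog signalling induces, fell by 0.75 with flutamide and was not called with vehicle (-0.25), with an interaction of -0.50 ± 0.17 (SE, adjusted p = 0.405). Its relative Gli2 and the hedgehog coreceptors Gas1 and Cdon fell with vehicle and were not called with flutamide, with interactions of 0.27, 0.39 and 0.30. The other Cdon probe set was lower, and of the 2 other Gas1 probe sets 1 was higher and 1 lower. Across the alternatives Gas1 ran from 0.13 to 0.46. Without 17 m 3, 18 m 3 and 18 flut 3, limma gave Gas1 and Cdon an unadjusted p under 0.05, but not Gli1 or Gli2. Of 29 hedgehog and fibroblast growth factor genes 3 were higher (10.3%) and 2 lower (6.9%) at an unadjusted p under 0.05. The shares of all genes were 1.95% and 7.47%, and the list median was 0.01. The Wnt inhibitor Sfrp2 fell in both arms, by 0.88 with vehicle and by 0.42 with flutamide (interaction 0.46 ± 0.12, SE). In the list of 20 cartilage genes 4 were higher and 0 lower, against 1.95% and 7.47% of all genes, led by the type II collagen gene Col2a1 at 0.89 ± 0.22 (SE, adjusted p = 0.302), while the list median was -0.04. Without 17 m 3 there was 1 higher and 2 were lower, with arrays centred on their medians 2 were higher and 1 lower, and of the 6 cartilage genes at or above the median level 0 passed in either direction.

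Most genes of ciliated airway cells rose over the day, and for 16 of 19 the change was smaller or more negative with flutamide. Of 19 ciliated cell genes 18 rose with vehicle and 12 rose with flutamide, against 16.9% and 12.5% of all genes. In the interaction 8 were lower and 0 higher at an unadjusted p under 0.05 (42.1% against 7.47% of all genes), with a median of -0.41. Foxj1, the master regulator of motile cilia, was at 6.89, 7.21 and 6.52 in 17 m and 7.41, 7.66 and 7.81 in 18 m. With flutamide it was between 7.28 and 7.43 at GD17 and between 7.53 and 7.58 at GD18. Foxj1 rose by 0.75 with vehicle and changed by 0.18 with flutamide, with an interaction of -0.57 ± 0.21 (SE, adjusted p = 0.446). Ccdc113, a component of the ciliary axoneme, rose by 1.47 with vehicle and by 0.73 with flutamide (interaction -0.74 ± 0.22, SE), Lrrc23, a radial spoke protein, by 1.43 and 0.70, Tekt4, a tektin, by 1.11 and 0.60, and Fam183b by 1.74 and 1.04. At GD18 the list means of both arms overlapped, at 7.10 to 7.20 in 18 m and 7.15 to 7.20 in 18 flut. They did not overlap at GD17, where 17 m had 6.17, 6.51 and 6.11 and 17 flut had 6.65, 6.58 and 6.59. The count of 8 lower genes was 4 without 17 m 1, 5 without 18 flut 1 or 18 m 2, 12 without 17 m 2 (the highest 17 m pool for these genes), and 4 without 17 m 3, 18 m 3 and 18 flut 3, when the median was -0.19. Leaving out 17 m 2 also gave 10 called genes, and of these Lrrc23 and Fam183b belong to the ciliated list.

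**Figure D4:**
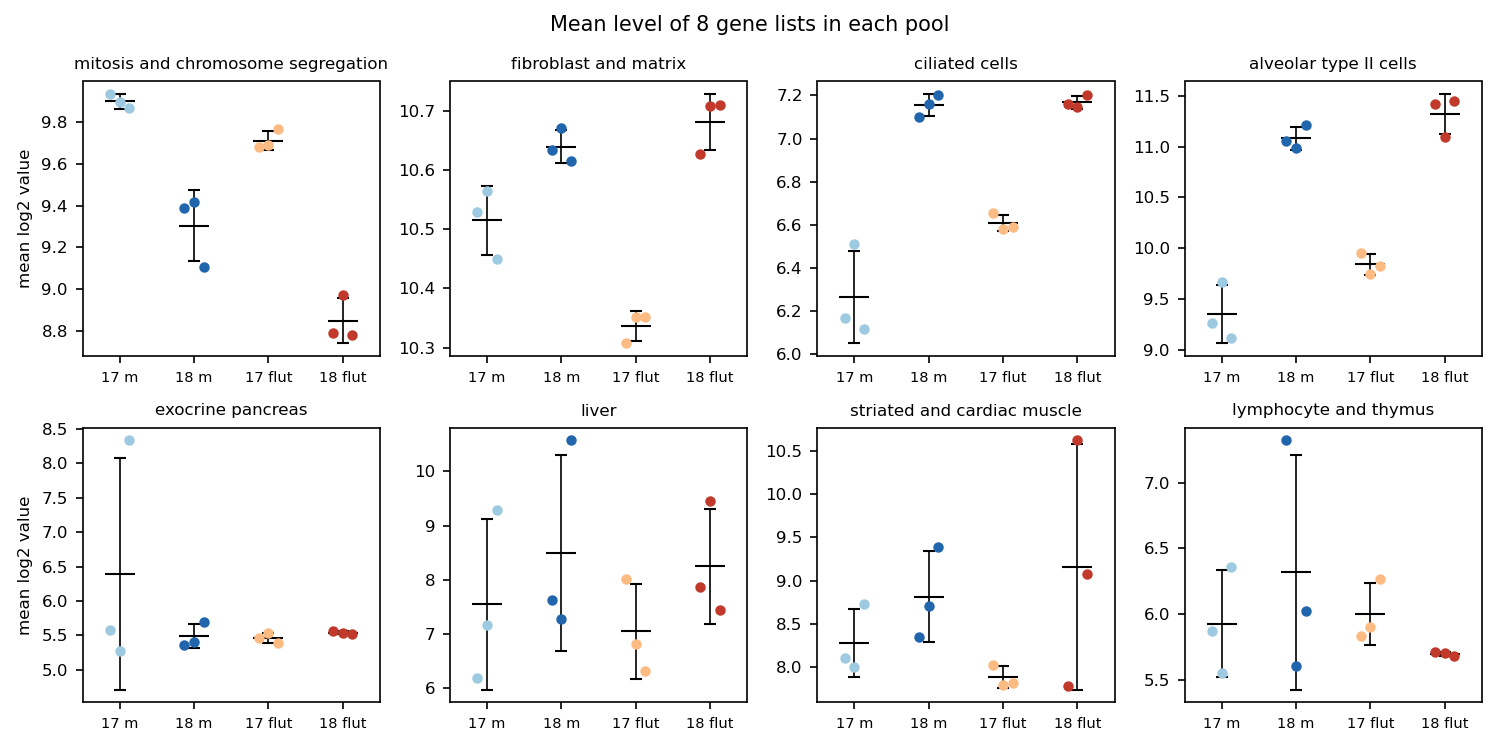
Mean log2 level of 8 gene lists in each pool, with the group mean as a bar and the SD (n = 3) as whiskers; each axis has its own range and does not start at 0. In the upper row 17 m 2 lies above the other 17 m pools for ciliated (6.51) and type II cell genes (9.67), and 18 m 3 is the lowest 18 m pool for mitosis genes (9.11). In the lower row single pools stand out, 17 m 3 at 8.33 for exocrine pancreas, 18 m 3 at 10.57 for liver, 18 flut 2 at 10.62 for striated muscle and 18 m 1 at 7.32 for lymphocyte genes.

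The secretory cell genes Scgb1a1 and Scgb3a1 rose steeply in both arms. Scgb1a1, the club cell secretory protein, was at 6.69, 7.63 and 5.81 in 17 m and 11.54, 11.45 and 11.94 in 18 m, a 30.6-fold rise. With flutamide it was at 8.84, 8.11 and 8.37 at GD17 and 12.26, 11.90 and 12.38 at GD18, a 13.3-fold rise. The interaction was -1.20 ± 0.51 (SE, adjusted p = 0.501), and -0.70 (unadjusted p = 0.123) without 17 m 3, 18 m 3 and 18 flut 3. For Scgb3a1 it was -1.01 ± 0.38 (SE). The 15 genes of the club and secretory cell list had a median of 0.04.

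Surfactant genes rose in both arms. Sftpd, the collectin of surfactant, rose by 3.95 with vehicle and by 3.22 with flutamide, with an interaction of -0.73 whose 95% interval ran from -1.47 to 0.01. Sftpa1 rose by 2.78 and 2.22, with an interaction of -0.56 (interval -1.29 to 0.18). Sftpb, which spreads the surfactant film, rose by 1.58 and 1.46, and Sftpc, the marker protein of type II cells, by 0.54 and 0.37, with interactions of -0.11 (interval -0.60 to 0.37) and -0.17 (interval -0.42 to 0.07). Of 21 type II cell genes 19 rose in each arm, against 16.9% of all genes with vehicle and 12.5% with flutamide. In the interaction 1 was lower at an unadjusted p under 0.05 (4.76%, against 7.47% of all genes), Slc6a14 with -0.82 ± 0.30 (SE). Without 17 m 3, 18 m 3 and 18 flut 3 Slc6a14 had -0.69 (limma unadjusted p = 0.109). The count of lower members was 9 without 17 m 2, with a median of -0.30 in place of -0.20, and 0 without 17 m 3. The median was 0.00 without 17 m 3, 18 m 3, 18 flut 2 and 18 flut 3. Of 18 type I cell genes 3 were lower (16.7%, against 7.47% of all genes), among them Hopx, a transcriptional cofactor, with -0.54 ± 0.21 (SE), and 1 was higher. Without 17 m 3, 18 m 3 and 18 flut 3 Hopx had -0.44 (limma unadjusted p = 0.119). The lower type I cell genes numbered 6 without 17 m 2 and 0 without 17 m 1 or without 17 m 3.

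Lipid synthesis genes were divided. Scd1, a desaturase that makes monounsaturated fatty acids, was at 6.58, 6.57 and 7.14 in 17 m and 8.86, 8.55 and 9.05 in 18 m. With flutamide it was at 6.67, 6.73 and 6.71 at GD17 and 9.97, 9.02 and 10.43 at GD18, a rise of 3.10 against 2.06 with vehicle. The interaction was 1.04 ± 0.40 (SE, adjusted p = 0.463), and 0.66 (limma unadjusted p = 0.0799) without 17 m 3, 18 m 3 and 18 flut 3. That fit keeps 18 flut 1, the pool with high Flg. With each pool left out in turn the Scd1 interaction ran from 0.73 to 1.43. Scd2, a relative of Scd1, rose by 0.33 with vehicle and by 0.58 with flutamide (interaction 0.25 ± 0.08, SE). Cds1 and Crls1, which make phospholipid precursors and cardiolipin, had -0.58 ± 0.22 and -0.31 ± 0.09 (SE), but the other Crls1 probe set was higher. Of the 45 genes in the list 4 were higher (8.89%, against 1.95% of all genes) and 3 lower (6.67%, against 7.47%), and the median was -0.04. Among 22 cholesterol synthesis genes none reached an unadjusted p under 0.05.

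Bhlhe40, a repressor in the circadian clock that hypoxia also induces, was the clock gene with the smallest p. It was at 8.28 to 8.35 in 17 m and 8.45 to 8.77 in 18 m, and at 7.94 to 8.13 in 17 flut and 8.85 to 9.24 in 18 flut. Bhlhe40 rose 2.01-fold with flutamide (adjusted p = 7.93e-05) and was not called with vehicle (0.28), with an interaction of 0.72 ± 0.15 (SE, adjusted p = 0.242). Ddit4, a stress-induced inhibitor of growth signalling, rose by 0.44 with flutamide and changed by -0.01 with vehicle. Of the 17 clock genes 2 were higher (11.8%) and 1 lower (5.88%) at an unadjusted p under 0.05, against 1.95% and 7.47% of all genes. Of 26 glucocorticoid targets 1 was higher (3.85%). Of 27 hypoxia and glycolysis genes 1 was higher and 1 lower (3.7% each), Ankrd37 at 0.50 ± 0.20 and adrenomedullin (Adm) at -0.41 ± 0.11 (SE). The other Adm probe set was higher.

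Long nuclear RNAs were among the higher genes. Rian, a maternally expressed RNA of the imprinted Dlk1-Dio3 domain, was at 9.54 to 9.81 in 17 m and 9.27 to 9.50 in 18 m, and at 8.61 to 8.81 in 17 flut and 8.96 to 9.21 in 18 flut. Rian fell by 0.29 with vehicle and rose by 0.37 with flutamide, with an interaction of 0.66 ± 0.14 (SE, adjusted p = 0.242), and each of its 3 other probe sets was higher at an unadjusted p under 0.05. Mirg, from the same domain, rose by 0.52 with flutamide and was not called with vehicle, with 0.41 ± 0.13 (SE), and Kcnq1ot1, an imprinted antisense RNA, had 0.34 ± 0.15 (SE). Of 12 such RNAs 4 were higher (33.3%, against 1.95% of all genes) and 0 lower (against 7.47%). The higher ones numbered 2 to 6 when each pool was dropped in turn. Xist belongs to this list, and its value of 1.74 ± 1.09 (SE) was 0.46 without 18 flut 3.

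Genes that moved in opposite directions were few. Of the genes called in both arms 5 fell with vehicle and rose with flutamide, and 2 rose with vehicle and fell with flutamide. In each of the 7 the GD17 and GD18 pools did not overlap in either arm. The 7 were picked by their calls in both arms, which makes such separation likely, so it is no further support. Gm4432, a predicted pseudogene on chromosome 17 that may share signal with related copies, was at 9.04, 9.05 and 8.85 in 17 m, 8.53, 8.44 and 8.55 in 18 m, 8.49, 8.30 and 8.48 in 17 flut and 8.77, 8.75 and 8.69 in 18 flut. It fell by 0.47 with vehicle and rose by 0.31 with flutamide, with an interaction of 0.78 ± 0.11 (SE, adjusted p = 0.175). Scmh1, a Polycomb protein, fell by 0.47 and rose by 0.32, with 1 of its 2 other probe sets higher and 1 lower. Odr4 and Lrif1, a nuclear receptor-interacting factor, rose with vehicle and fell with flutamide, with interactions of -0.52 ± 0.10 and -0.60 ± 0.13 (SE).

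The 10 higher and 10 lower genes of smallest p all had the same sign without 17 m 3, 18 m 3 and 18 flut 3. Their limma unadjusted p in that fit lay between 2.76e-06 and 0.00505. These genes were picked by their p in a fit that held the same remaining pools. That makes an equal sign and a small p likely, so they are no further support. Several of the other higher ones were not called with flutamide. Moxd1, a monooxygenase-like enzyme, fell by 0.47 with vehicle and changed by 0.01 with flutamide (interaction 0.48 ± 0.09, SE), and Kantr, a long RNA, fell by 0.67 and changed by 0.01 (0.68 ± 0.13, SE). The RNA-binding protein Rbm6 fell by 0.38 with vehicle and had an interaction of 0.52 ± 0.10 (SE), but both of its other probe sets were lower, and the mean of its probe sets gave 0.14. Camk4, a calcium-dependent kinase, rose by 0.84 with vehicle and changed by -0.04 with flutamide (-0.88 ± 0.17, SE), and its 4 other probe sets were lower too. Over the genes at an unadjusted p under 0.05, the commonest form among the higher ones was a fall with vehicle and no call with flutamide (135 of 354). Among the lower ones it was no call in either arm (389 of 1359), followed by a rise with vehicle and no call with flutamide (350) and a fall with flutamide alone (325).

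**Figure D5:**
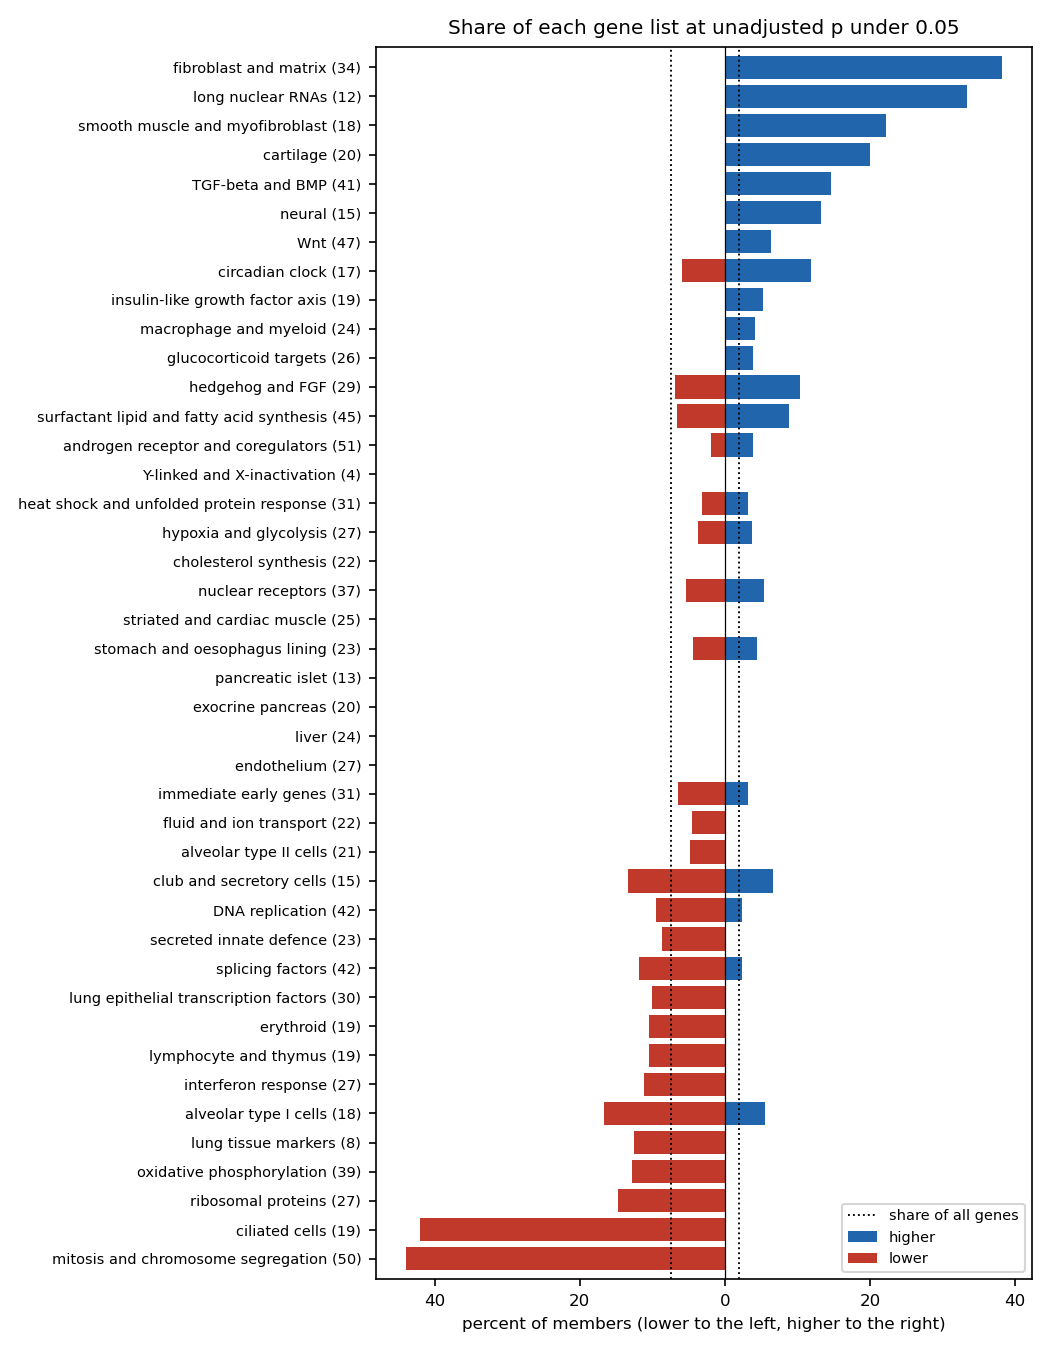
Share of the measured members of each of 42 gene lists (number in brackets) with an unadjusted interaction p under 0.05, higher in blue to the right and lower in red to the left. Dotted lines give the shares of all genes, 1.95% higher and 7.47% lower. The mitosis (44.0%) and ciliated cell (42.1%) lists extend farthest to the left and the fibroblast and matrix list (38.2%) farthest to the right.

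Lists closest to the androgen receptor did not stand out. Of 51 androgen receptor coregulators and related genes 2 were higher (3.92%) and 1 lower (1.96%) at an unadjusted p under 0.05. The shares of all genes were 1.95% and 7.47%. The list median was -0.04, against -0.05 over all genes. The lower gene was Ube3a at -0.46 ± 0.17 (SE). Of its 5 other probe sets 2 were higher and 3 lower, and the mean of its probe sets gave -0.002. Of 37 nuclear receptors 2 were higher and 2 lower (5.41% each). Of 27 endothelial genes none passed, and the median was 0.05. The developmental regulators measured by PCR in the study that were analysed here had interactions of -0.13 ± 0.10 for Cdk6, -0.26 ± 0.11 for Nfib, -0.05 ± 0.12 for Sirt1 and -0.04 ± 0.08 for Nr2c2 (SE). With each pool left out in turn Nfib ran from -0.34 to -0.20, while the mean of its probe sets gave 0.01. Of 27 interferon genes 3 were lower (11.1%, against 7.47% of all genes) and 0 higher, with the median at -0.05 as over all genes. The antiviral gene Rsad2 was the lowest and rose by 1.02 with vehicle and was not called with flutamide (0.16), with an interaction of -0.85 ± 0.24 (SE, adjusted p = 0.354).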

How the data were processed

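RNA of 12 pools of male fetal lung was hybridized by the authors to Affymetrix MOE430 2.0 arrays, and images were extracted with GCOS. The authors deposited 1 intensity for each of 45101 probe sets, on a linear scale, after background subtraction, normalization and summary by RMA. The submitters' processing notes name limma. From these, log2 values were taken, 64 control probe sets were left out, and 34945 of 45037 probe sets had 1 symbol in the platform annotation (932 had several, 9160 none). For each of 18193 symbols the probe set of highest mean over all 18 arrays was used.

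limma 3.58.1 in R 4.3.3 (statmod 1.5.0) fitted 4 group means (residual degrees of freedom 8) and contrasts for the interaction and for the day change in each arm. All adjusted p-values are Benjamini-Hochberg values over all genes, called means under 0.05, and p-values come from this fit unless an alternative or left-out pools are named. The fit was tested on simulated data. The number of arrays limits precision.

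The comparison and the 42 gene lists (1045 of 1123 entries measured) were chosen with earlier results of these data known, and lists are given by counts and medians without a test. Named genes are the 10 of smallest p in each direction, the gene of smallest p in each list, surfactant protein genes and genes the study measured by PCR. Others named were chosen after their values were seen. Motifs were searched with Python 3.11.15 in RefSeq promoter windows. Alternatives covered the threshold, the probe set rule, scaling, a filter, weights, the variance prior, a block and pools left out.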

Additional observations from a re-analysis of the deposited data

Results flagged for a closer look

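The changes over the day of 7 genes ran in opposite directions in the vehicle and flutamide arms. In each arm the GD18 pools lay on 1 side of all GD17 pools. These genes were picked by their calls in both arms, so the separation of their pools adds no support. The interaction was 0.78 for Gm4432, 0.79 for Scmh1, 0.78 for C130075A20Rik, 0.66 for Rian and 0.62 for Ppp6r3, a regulatory subunit of protein phosphatase 6. It was -0.52 for Odr4 and -0.60 for Lrif1. None of these interactions was called by limma, with adjusted p between 0.175 and 0.273, and for Ppp6r3 1 of 4 other probe sets was lower.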

How the results depend on the processing

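The number of genes called in the interaction was 0 in the report, and it stayed 0 under both thresholds, the other scalings, the filter, the variance prior and the averaged probe sets. With all 18 arrays in the fit it was 9 (5 higher and 4 lower), and with array weights, where 18 m 3 received the lowest weight, it was 23 (15 higher and 8 lower). Leaving out each pool in turn gave 0 to 10 called genes, 0 to 1 higher and 0 to 9 lower, with calls only without 17 m 2. In that setting Lgals4, at 4.88 in 17 m 2 and 7.74 and 7.25 in the other 17 m pools, was the higher gene. After the data were seen, 18 flut 2 was left out together with 17 m 3, 18 m 3 and 18 flut 3. This gave 28 calls (27 higher and 1 lower), mostly epidermal genes such as Flg and Krt1 that were high in 18 flut 1, then the sole 18 flut pool, whose spread was assumed to be that of the other groups.

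At an unadjusted p under 0.05, the 1713 genes became 4333 of all probe sets (1874 higher and 2459 lower, a share of 56.8% lower against 79.3%), with 9360 and 7609 day changes called with vehicle and flutamide. There were 896 lower genes at or above the median level, 574 higher genes with array weights and 604 higher genes without the 4 pools. Centring arrays on their medians moved the median of all genes to -0.07. All 11 list medians tested kept their sign in all alternatives except those of type II, type I, club cell and cartilage genes.

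Few of the named genes changed sign. Averaged probe sets gave 0.0118 for Nfib and 0.0864 for Nr2c2. Without the 4 pools Chgb was -0.0604, Sirt1 0.0367 and Sftpb 0.109. With each pool left out Sirt1 ran from -0.106 to 0.0278, Sftpb from -0.319 to 0.0303 and Krt1 from -0.17 to 2.40.

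With the replicate block 0 genes were called and 1549 had an unadjusted p under 0.05. With the block 8 smooth muscle and myofibroblast genes were higher at an unadjusted p under 0.05, in place of 4. The correlations of the deviations of same-numbered pools ran from -0.276 to 0.385 over 18 pairs, 6 of them over 0.1. Of 12 pools 5 correlated best with their own number. The labels do not say what the number stands for, and these values cannot settle whether such pools were processed together.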
